A study of Mus musculus with 5 samples.

Results

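The genes described here are 35 genes of the oligodendrocyte lineage and of myelin, from the transcription factors that set up the lineage to the proteins and lipid enzymes of the mature sheath. They were taken as a list of gene symbols, and each was found as 1 transcript row, so that all 35 were measured among 20178 rows. By role the list holds 6 transcription factors, 2 progenitor genes, 4 genes of the committed stage, 11 myelin proteins, 3 myelin lipid enzymes and 9 other genes of the mature stage.

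Oligodendrocytes are the cells that wrap axons of the central nervous system in myelin. They arise from dividing progenitors that carry the PDGF receptor and the NG2 proteoglycan, pass through a short committed stage with its own surface receptors and enzymes, and then turn on myelin proteins and lipids, with some proteins of the finished sheath appearing last. Astrocyte cultures taken from the young brain commonly hold some cells of this lineage.

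RNA-seq was read from 5 mouse cultures of the ICR strain, with 1 library each and no replicates. They were Ctx NPCs, which are neural progenitor cells from the cortex of embryos at embryonic day 12, Ctx astrocytes and VM astrocytes, from the cortex and the ventral midbrain at postnatal day 5, and 2 further VM astrocyte cultures that received lentivirus. All were at passage 2, and the labels call the astrocyte cultures astrocyte progenitor cells. The virus carried Nurr1, which is encoded by Nr4a2, together with Foxa2, or no gene (mock), and the study's methods place both genes behind a CMV promoter that is active in many cell types. The questions set by the design were how the cultures differ by region and cell type and what Nurr1 and Foxa2 change in VM astrocytes.

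The labels of the transduced libraries contradict each other. The titles C and NF read as control and Nurr1 with Foxa2, whereas the treatment entries give the mock virus to the library titled NF and both genes to the library titled C. The libraries are therefore called by their titles throughout. Nr4a2 had 81 reads in VM astrocytes, 53 in the library titled C and 183 in the library titled NF, and Foxa2 had 68, 15 and 216 reads, so both genes were highest in the library titled NF, which goes with the titles and against the treatment entries. If the treatment entries were right, every direction given between the libraries titled C and NF would stand with the conditions exchanged.

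Library totals lay between 20010818 and 22554835 reads. The library titled NF was close to untransduced VM astrocytes, whereas the library titled C stood apart from both. Its 10 microglia markers summed to 444 FPKM (fragments per kilobase of transcript, scaled to the library total, so a level per length) against 136 in VM astrocytes and 101 in the library titled NF, and its 6 choroid plexus markers to 10.5 FPKM against 58.2 and 47.7. The Ctx NPC library held all 8 neural progenitor markers and all 8 neuron markers above 1 FPKM, and also the highest Gfap, the astrocyte filament gene, with 2246 FPKM against 476 in Ctx astrocytes and 77.8 to 180 in the VM libraries. The 8 neuron markers summed to 343 FPKM in Ctx NPCs, against 331 in VM astrocytes. Stmn2, 1 of these markers, had 33.3 FPKM in Ctx NPCs and 119 to 304 in the astrocyte cultures. The Ctx NPC culture was thus mixed at the RNA level, with progenitor, neuron, astrocyte and oligodendrocyte genes together. In bulk RNA, a larger number of cells of a type and more RNA per cell cannot be told apart.

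The Ctx NPC library held the highest level of most of the 35 genes. It was the highest of the 5 libraries for 28 of them, against 43% of the 13298 rows that passed 1 FPKM somewhere, and it was at least 2-fold above every other library for 21 of them, against 9.22% of those rows. For 10 genes the next library was at least 10-fold lower, namely Sox10, Myrf, Gpr17, Enpp6, Bcas1, Mbp, Mag, Cldn11, Ugt8a and Fa2h. The library titled C was highest for Cspg4, Opalin, Mal, Trf and Evi2a, the library titled NF for Aspa and Ctx astrocytes for Plekhb1. More than 1 FPKM was measured for 31 genes in Ctx NPCs, 30 in the library titled C, 24 in VM astrocytes, 21 in the library titled NF and 20 in Ctx astrocytes. Every library passed this level for 18 genes, and none did for Ermn. The plot of FPKM by library shows all 35.

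**Figure D1:**
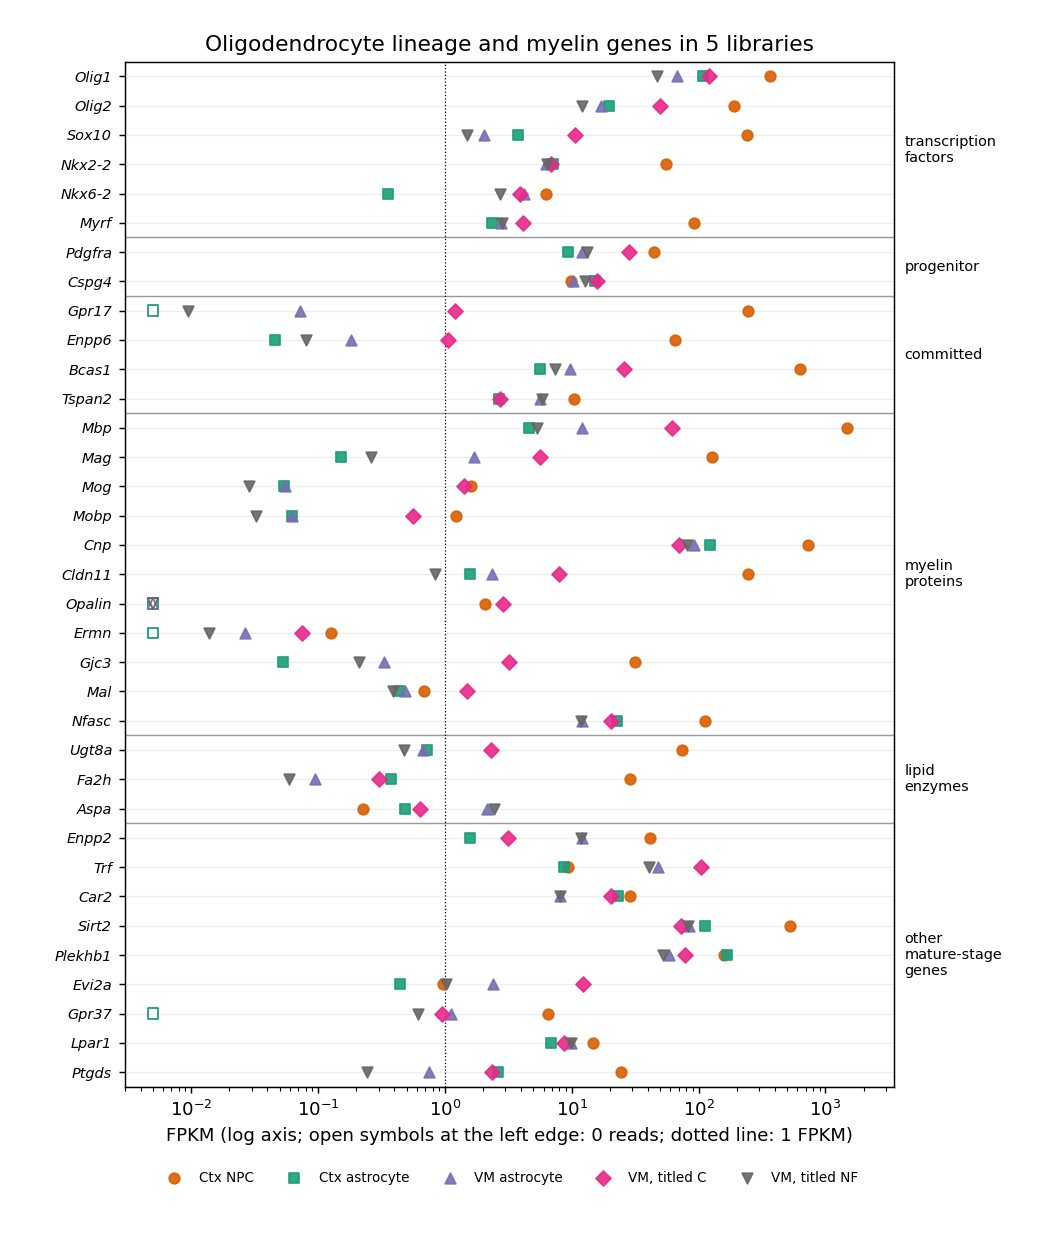
FPKM (log axis) of the 35 genes, 1 row per gene grouped by role, with 1 symbol per library, open symbols at the left edge for 0 reads and a dotted line at 1 FPKM. Ctx NPCs (circles) lie to the right for 28 of the 35 genes, and the library titled C (diamonds) is the highest of the 3 VM libraries for 27.

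Among the transcription factors, Olig1 and Olig2, the paired basic helix-loop-helix genes that specify the lineage, were measured well in every culture. Olig1 had 368 FPKM in Ctx NPCs, 109 in Ctx astrocytes, 67.6 in VM astrocytes, 121 in the library titled C and 46.9 in the library titled NF. Olig2 had 191, 19.7, 17.0, 49.5 and 12.1 FPKM in the same order. Both were therefore highest in Ctx NPCs, second in the library titled C and lowest in the library titled NF. Sox10, the HMG-box factor that drives myelin genes, ranged far more widely, with 242 FPKM in Ctx NPCs, 3.74 in Ctx astrocytes, 2.04 in VM astrocytes, 10.7 in the library titled C and 1.5 in the library titled NF. Myrf, a membrane-bound factor needed for myelin gene transcription, had 91.7 FPKM in Ctx NPCs and between 2.36 and 4.16 in the other libraries. Nkx2-2, a homeodomain factor of progenitors and early oligodendrocytes, had 55.3 FPKM in Ctx NPCs and between 6.27 and 7.12 elsewhere, so the 4 astrocyte cultures hardly differed in it. Nkx6-2, a related factor of later stages, had 6.26 FPKM in Ctx NPCs, 0.356 in Ctx astrocytes, 4.20 in VM astrocytes, 3.90 in the library titled C and 2.70 in the library titled NF, and Ctx astrocytes alone stood low.

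The progenitor genes spread less. Pdgfra, the receptor for PDGF-AA, had 44.7 FPKM in Ctx NPCs, 9.31 in Ctx astrocytes, 12.1 in VM astrocytes, 28.3 in the library titled C and 13.2 in the library titled NF. Cspg4, the NG2 proteoglycan, had 9.85, 15.2, 10.3, 15.9 and 12.8 FPKM, so Ctx NPCs and VM astrocytes held the least of it. Fibroblasts also express Pdgfra and pericytes also express Cspg4. The 8 fibroblast markers summed to 37.4 FPKM in Ctx NPCs, 255 in Ctx astrocytes, 485 in VM astrocytes, 319 in the library titled C and 509 in the library titled NF, and the 7 pericyte markers to 3.20, 14.2, 31.8, 54.6 and 32.3 FPKM, with Higd1b at 0 reads in all 5 libraries. Both lists were lowest in Ctx NPCs, and their part in the levels of Pdgfra and Cspg4 was not tested.

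Gpr17 and Enpp6 of the committed-stage genes, and to a lesser degree Bcas1, separated Ctx NPCs from the astrocyte cultures. Gpr17, a receptor carried briefly by committed precursors, had 25368 reads in Ctx NPCs, 0 in Ctx astrocytes, 8 in VM astrocytes, 141 in the library titled C and 1 in the library titled NF. Enpp6, a choline phosphodiesterase of newly forming oligodendrocytes, had 3982, 3, 12, 73 and 5 reads. Both were near absent from the astrocyte cultures apart from the library titled C, where they were 203-fold and 61.5-fold below Ctx NPCs. Bcas1, which marks newly forming myelinating cells, had 632 FPKM in Ctx NPCs, 5.67 in Ctx astrocytes, 9.71 in VM astrocytes, 26.1 in the library titled C and 7.37 in the library titled NF. Tspan2, a tetraspanin of myelin membranes, had a different pattern, with 10.4 FPKM in Ctx NPCs, 2.68 in Ctx astrocytes, 5.61 in VM astrocytes, 2.73 in the library titled C and 5.79 in the library titled NF. It was the 1 committed-stage gene with less RNA in the library titled C than in the other VM libraries.

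Among the myelin proteins, Mbp reached the highest level of the 35 genes, in Ctx NPCs. Mbp, the basic protein that compacts the sheath, had 1485 FPKM in Ctx NPCs, 4.61 in Ctx astrocytes, 12.1 in VM astrocytes, 61.9 in the library titled C and 5.37 in the library titled NF. Reads were counted on 1 Mbp row, so the classic myelin forms and the golli forms of the gene were not separated. Mag, an adhesion glycoprotein that faces the axon, had 6184 reads in Ctx NPCs, 8 in Ctx astrocytes, 89 in VM astrocytes, 307 in the library titled C and 13 in the library titled NF. Cldn11, the tight junction protein of myelin, had 9147, 64, 94, 335 and 32 reads, and Gjc3, a connexin of myelinating glia, had 2212, 4, 25, 253 and 15. These 4 genes shared 1 order among the VM libraries, with the library titled C highest and the library titled NF lowest, though for Gjc3 the interval of the ratio between VM astrocytes and the library titled NF included 0.

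Cnp, the cyclic nucleotide phosphodiesterase of the sheath, kept a high level everywhere, with 727 FPKM in Ctx NPCs, 123 in Ctx astrocytes, 91.9 in VM astrocytes, 70.4 in the library titled C and 81.6 in the library titled NF. Nfasc, a cell adhesion protein with a glial form and a neuronal form, had 112, 22.8, 12.1, 20.6 and 11.9 FPKM. Neither gene is confined to oligodendrocytes, and neither spread among the astrocyte cultures as Mbp did.

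The last myelin proteins to appear were scarce in every library. Mog, on the outermost face of the sheath, had 55 reads in Ctx NPCs, 2 in Ctx astrocytes, 2 in VM astrocytes, 55 in the library titled C and 1 in the library titled NF. Opalin, a transmembrane protein of mature oligodendrocytes, had 37 reads in Ctx NPCs, 58 in the library titled C and 0 in the other 3 libraries, where a count of 0 allows up to 3 reads. Mobp, an abundant protein of adult myelin, had 37, 2, 2, 19 and 1 reads. Thus Mog and Opalin differed 1.13-fold and 1.39-fold between Ctx NPCs and the library titled C, though these libraries differed 24.0-fold in Mbp. Ermn, a cytoskeletal protein of late oligodendrocytes, had 9, 0, 2, 6 and 1 reads and was too low to compare. Mal, a lipid-raft proteolipid of compact myelin, had 38, 26, 29, 94 and 22 reads and was highest in the library titled C.

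The myelin lipid enzymes did not follow 1 pattern. Ugt8a, which makes the galactosylceramide of myelin, had 74.5 FPKM in Ctx NPCs, 0.725 in Ctx astrocytes, 0.677 in VM astrocytes, 2.30 in the library titled C and 0.477 in the library titled NF. Fa2h, which hydroxylates the fatty acids of myelin lipids, had 1445 reads in Ctx NPCs and between 3 and 20 in the other libraries. Aspa, which cleaves N-acetylaspartate in mature oligodendrocytes, ran the other way, with 7 reads in Ctx NPCs, 16 in Ctx astrocytes, 71 in VM astrocytes, 22 in the library titled C and 76 in the library titled NF. Aspa was thus lowest where Ugt8a and Fa2h were highest.

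The 9 other mature-stage genes are also known in other cell types. Enpp2, the secreted enzyme autotaxin, had 41.5 FPKM in Ctx NPCs, 1.58 in Ctx astrocytes, 11.97 in VM astrocytes, 3.15 in the library titled C and 11.8 in the library titled NF. Trf, the iron carrier transferrin, had 9.30, 8.72, 47.7, 105.2 and 40.9 FPKM. Choroid plexus makes both, and its 6 markers summed to 1.47, 6.06, 58.2, 10.5 and 47.7 FPKM in the same order, with Ttr, its transthyretin gene, at 1, 0, 953, 106 and 683 reads. Among the VM libraries, Enpp2 and these markers were high together in VM astrocytes and in the library titled NF and low together in the library titled C, where Trf was highest. In the cortical libraries these markers were low, while Enpp2 was highest of all in Ctx NPCs. Their part in the levels of Enpp2 and Trf was not tested.

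Sirt2, a deacetylase abundant in myelin, had 530 FPKM in Ctx NPCs, 113 in Ctx astrocytes and 72.7 to 84.3 in the VM libraries. Car2, a carbonic anhydrase, had 29.0, 23.3, 8.07, 20.3 and 8.04 FPKM, and Plekhb1, a pleckstrin homology domain protein, had 158, 167, 58.1, 77.99 and 52.8 FPKM. Car2 and Plekhb1 were therefore as high in Ctx astrocytes as in Ctx NPCs to within 1.24-fold. Evi2a, a small membrane protein gene, had 29, 14, 76, 410 and 31 reads and peaked in the library titled C. Gpr37, a receptor of maturing oligodendrocytes, had 418, 0, 76, 69 and 40 reads, and Ptgds, the prostaglandin D synthase, had 395, 46, 13, 43 and 4. Lpar1, a receptor for lysophosphatidic acid, stayed within 6.82 to 14.7 FPKM in all 5 libraries.

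The spans of 5 of the 35 genes overlap another protein-coding gene in the annotation. These are Nkx6-2 with Inpp5a, Gpr17 with Lims2, Cnp with Dnajc7, Aspa with Spata22, and Evi2a with Nf1 and Evi2. Use of strand in the counting was not given in the sources used here, so reads of overlapping genes may have been split or mixed.

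Ctx NPCs were set beside Ctx astrocytes to compare the lineage in the 2 cortical cultures. Oligodendrocyte genes were higher in Ctx NPCs at every stage, with 3.38-fold for Olig1, 322-fold for Mbp and 828-fold for Mag as examples, and none was called lower. A gene was called where scaled counts differed at least 2-fold and either library passed 1 FPKM. By that rule 27 of the 35 were higher, 0 were lower, 4 (Cspg4, Trf, Car2 and Plekhb1) were neither and 4 (Ermn, Mal, Aspa and Evi2a) did not reach 1 FPKM, while 20.1% of all 12623 rows were called higher and 17.9% lower. All 6 transcription factors, all 4 committed-stage genes and 9 of the 11 myelin proteins were called higher. The median log2 ratio was 4.07 over the 31 genes that reached 1 FPKM and 0.19 over all rows. With 1 library each, no test of the cultures was possible, and intervals are 95% exact intervals that cover counting error only.

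The difference was larger for most committed and myelin genes than for Olig1 and Olig2, with Tspan2, Cnp and Nfasc, at log2 ratios of 1.95, 2.56 and 2.30, among the exceptions. The log2 ratio was 3.27 (3.18 to 3.37) for Olig2, 6.01 (5.82 to 6.21) for Sox10 and 5.27 (5.11 to 5.45) for Myrf. It was 6.80 (6.65 to 6.95) for Bcas1, 8.33 (8.15 to 8.51) for Mbp, 9.60 (8.71 to 10.91) for Mag and 7.25 (6.90 to 7.64) for Cldn11. With the 0 reads in Ctx astrocytes taken as 3, Gpr17 was 9058-fold, Gpr37 149-fold and Opalin 13.2-fold higher in Ctx NPCs. The exact lower limits of their log2 ratios were 12.85, 6.92 and 3.35. Enpp6, with 3 reads in Ctx astrocytes, had a log2 ratio of 10.24 (8.93 to 12.75). By contrast Mog and Mobp, each with 2 reads in Ctx astrocytes, had log2 ratios of 4.56 (2.96 to 7.96) and 4.0 (2.35 to 7.41). Most neuron genes differed in the same direction, with 7 of 8 markers called higher in Ctx NPCs and Stmn2 called lower. Of the microglia markers that reached 1 FPKM, 7 of 7 were called lower. Their part in the difference was not tested.

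Ctx astrocytes and VM astrocytes were set side by side for region. The lineage factors were alike to within 2-fold apart from Nkx6-2, and Mbp, Mag and some mature-stage genes were lower in Ctx astrocytes. Of the 35 genes 3 (Car2, Plekhb1 and Ptgds) were called higher in Ctx astrocytes, 9 lower, 13 neither and 10 did not reach 1 FPKM, while 4.49% of all rows were called higher and 9.89% lower. The 9 were Nkx6-2, Tspan2, Mbp, Mag, Aspa, Enpp2, Trf, Evi2a and Gpr37. The log2 ratio was -1.39 (-1.61 to -1.18) for Mbp, -3.41 (-4.74 to -2.44) for Mag and -3.49 (-4.66 to -2.63) for Nkx6-2, whereas Sox10, at 0.87 (0.55 to 1.21), leaned the other way. All 4 choroid plexus markers that reached 1 FPKM, and 7 of 8 microglia markers, were also lower in Ctx astrocytes. Of 7 astrocyte markers 5 were higher there and 0 lower, and of 7 fibroblast markers 1 was higher and 4 lower. The part of these cell types was not tested.

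The library titled C was set beside untransduced VM astrocytes. It held more of the lineage factors Olig2 and Sox10, of the committed genes Gpr17, Enpp6 and Bcas1 and of most myelin proteins, with 5.11-fold more Mbp and 26.0-fold more Mog, while Tspan2, Aspa and Enpp2 were lower. Of the 35 genes 18 were called higher, 3 lower, 11 neither and 3 (Mobp, Ermn and Fa2h) did not reach 1 FPKM, while 7.3% of all rows were called higher and 8.48% lower. The median log2 ratio was 1.28 over the 32 genes that reached 1 FPKM and -0.01 over all rows. Among the 3 VM libraries the library titled C was highest for 27 of the 35 genes, and for 24 of the 32 that passed 1 FPKM in any of them, against 42.6% of all rows.

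By role the differences were uneven. Sox10 had a log2 ratio of 2.38 (2.10 to 2.68) and Olig2 of 1.54 (1.43 to 1.65), whereas Nkx2-2, at 0.14 (-0.10 to 0.38), and Nkx6-2, at -0.11 (-0.49 to 0.28), had intervals that include 0. Gpr17 had a log2 ratio of 3.98 (3.04 to 5.30) and Enpp6 of 2.48 (1.63 to 3.54). Of the 11 myelin proteins 7 were called higher. Mbp was at 2.35 (2.23 to 2.48), Gjc3 at 3.23 (2.66 to 3.91) and Mog at 4.4 (2.78 to 7.78) from 2 reads. Cldn11 was at 1.75 (1.42 to 2.10), Mag at 1.70 (1.36 to 2.06) and Mal at 1.60 (1.0 to 2.27). Opalin was 18.3-fold higher with its 0 reads in VM astrocytes taken as 3, and the exact lower limit of its log2 ratio was 3.85. Cnp, at -0.38 (-0.45 to -0.32), and Nfasc, at 0.76 (0.69 to 0.83), stayed within 2-fold. The lower genes were Aspa at -1.75 (-2.53 to -1.07), Enpp2 at -1.92 (-2.14 to -1.72) and Tspan2 at -1.04 (-1.26 to -0.82). Tspan2 lay at the edge of the 2-fold rule.

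Other cell types differed between the same libraries. Of the 10 microglia markers 8 were called higher in the library titled C, with Itgam, the integrin of myeloid cells, at 7874 reads against 1893, and all 4 choroid plexus markers that reached 1 FPKM were lower. Of the 8 Schwann cell markers 2 were called higher, Egr2 with 600 reads against 121 and Cdh19 with 486 against 94, and 1 was lower, while Pmp2, a fatty acid binding protein of peripheral myelin, had 6 reads against 7. Of the 5 neuron markers that reached 1 FPKM 3 were called higher and 0 lower, and of the 7 fibroblast markers 0 were higher and 2 lower. The part of these cell types in the differences was not tested.

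The library titled NF was set beside the same untransduced VM astrocytes. These libraries were alike for most of the 35 genes, and the exceptions were 4 genes that were lower in the library titled NF, 3 of them myelin protein genes. Mbp, Mag, Cldn11 and Evi2a were called lower, 0 genes were called higher, 20 were neither and 11 did not reach 1 FPKM, while 0.322% of all rows were called higher and 0.668% lower. The log2 ratio was -1.17 (-1.38 to -0.97) for Mbp, -2.66 (-3.67 to -1.86) for Mag, -1.47 (-2.11 to -0.90) for Cldn11 and -1.21 (-1.88 to -0.61) for Evi2a. Olig1, at -0.53 (-0.61 to -0.45), and Olig2, at -0.49 (-0.65 to -0.34), were lower by less than 2-fold, and Nkx2-2, Myrf, Car2, Sirt2 and Lpar1 had intervals that include 0. Microglia markers were called lower for 1 of 8, and no astrocyte, neuron or fibroblast marker was called. Over the markers that reached 1 FPKM, the median log2 ratio was -0.53 for microglia, -0.38 for astrocytes, 0.12 for neurons and 0.03 for fibroblasts. Gfap, with 77.8 FPKM against 154, and the microglia marker C1qb, with 5.96 against 11.9, were lower by just under 2-fold. The part of these cell types was not tested.

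The transduced libraries were also compared directly, which is the contrast of Nurr1 and Foxa2 with mock. Of the 35 genes 19 were called lower in the library titled NF and 3 (Tspan2, Aspa and Enpp2) higher, 9 were neither and 4 did not reach 1 FPKM, while 9.73% of all rows were called lower and 9.53% higher. The 3 higher genes are those that were lower in the library titled C than in VM astrocytes. Both contrasts use the library titled C, and the 19 lower genes rest on it in the same way. Against VM astrocytes, 18 of the 35 were called higher in the library titled C and 4 lower in the library titled NF. On that reference Sox10 had log2 ratios of 2.38 in the library titled C and -0.44 in the library titled NF. Mbp had 2.35 and -1.17. Mag, which departed more in the library titled NF, had 1.70 and -2.66. Mbp was 11.5-fold lower in the library titled NF, with a log2 ratio of -3.53 (-3.71 to -3.35), Mag 21.3-fold, with -4.36 (-5.34 to -3.62), and Sox10 7.09-fold, with -2.82 (-3.17 to -2.50). Gpr17, with 1 read in the library titled NF, had a log2 ratio of -6.44 (-12.30 to -4.49), and Opalin was at least 17.4-fold lower. Of the microglia markers 8 of 9 were lower as well, and all 4 choroid plexus markers that reached 1 FPKM were higher. With the treatment entries in place of the titles, the same values would read as higher myelin genes with Nurr1 and Foxa2 than with mock.

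**Figure D2:**
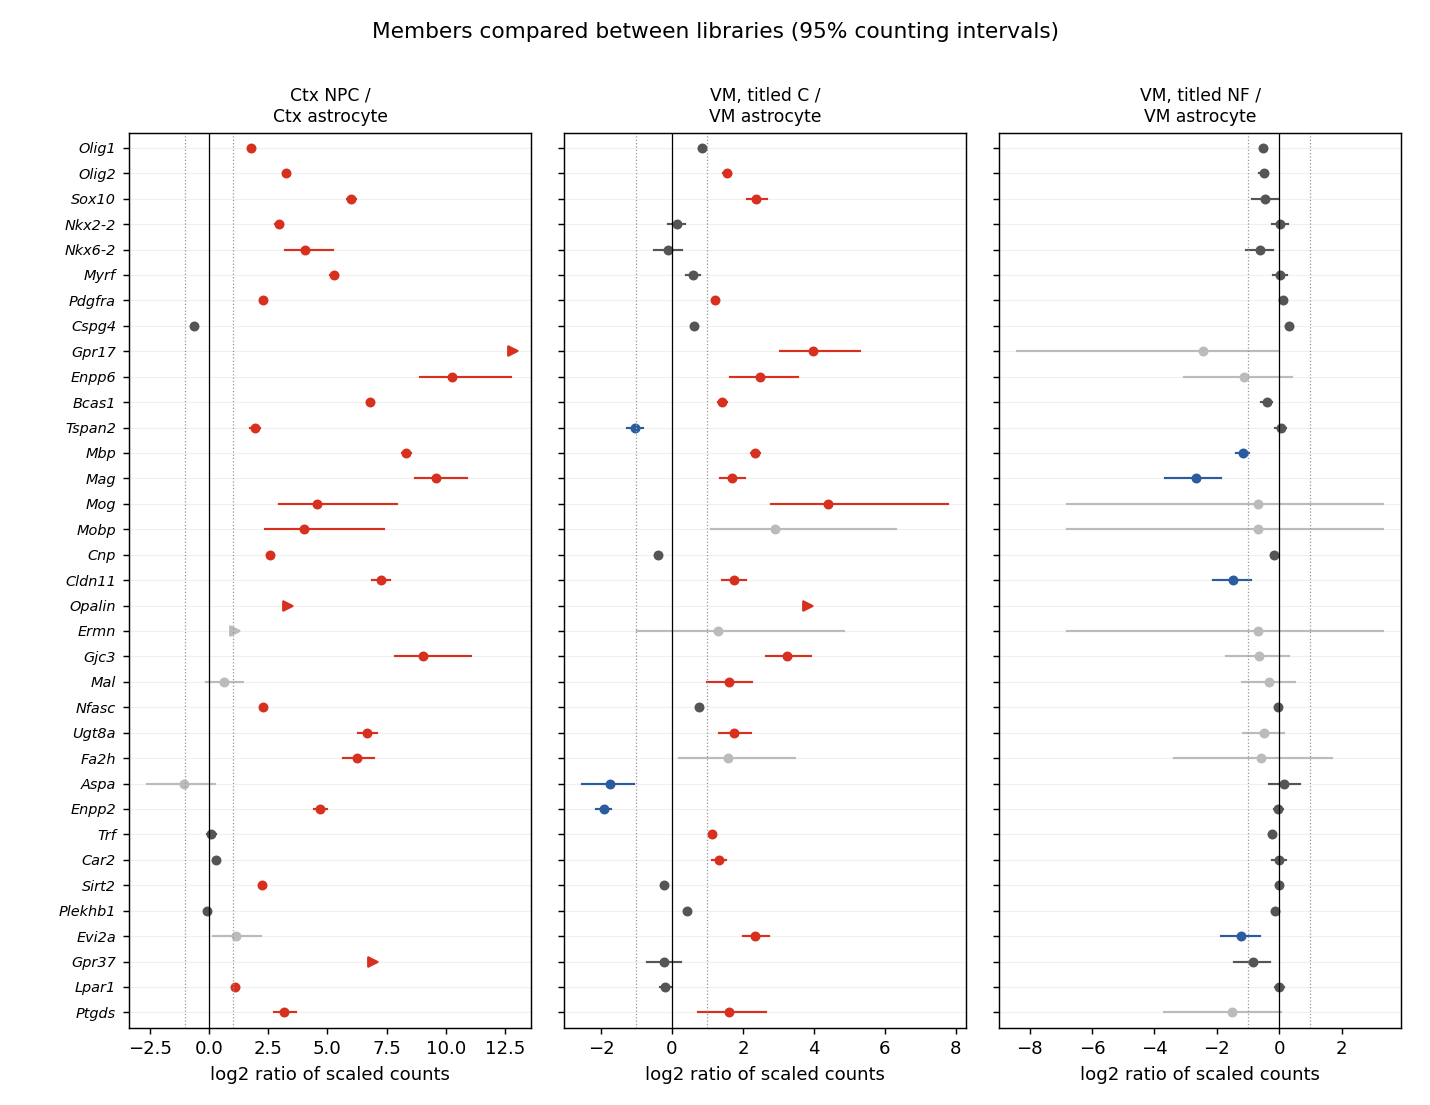
Log2 ratio of scaled counts for the 35 genes in 3 comparisons, each against its own reference library, with bars for 95% counting intervals, triangles for bounds against 0 reads, red for called higher, blue for called lower, dark grey for neither and light grey for genes under 1 FPKM in both libraries. Ctx NPCs are to the right for 27 genes, the library titled C has 18 higher and 3 lower, and the library titled NF lies near 0 except for 4 lower genes.

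The stages were then compared within each culture. The genes were split into a progenitor core of 6 (Pdgfra, Cspg4, Olig1, Olig2, Sox10 and Nkx2-2), a committed core of 6 (Gpr17, Enpp6, Bcas1, Tspan2, Myrf and Nkx6-2) and a myelinating core of 13 (Mbp, Mag, Mog, Mobp, Cnp, Cldn11, Ugt8a, Opalin, Ermn, Aspa, Fa2h, Gjc3 and Mal), and the FPKM of each core was summed. Ctx NPCs held 910 FPKM of progenitor, 1049 of committed and 2723 of myelinating genes, which gave shares of 19.4%, 22.4% and 58.2%. In Ctx astrocytes the shares were 53.5%, 3.63% and 42.9%, in VM astrocytes 46.2%, 9.02% and 44.8%, in the library titled C 54.0%, 9.10% and 36.9%, and in the library titled NF 45.7%, 9.23% and 45.1%. Ctx NPCs therefore had the largest committed share and the smallest progenitor share of the 5 cultures.

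The myelinating share of the astrocyte cultures rested on Cnp. It made up 93.5% of the myelinating sum in Ctx astrocytes, 82.1% in VM astrocytes, 89.0% in the library titled NF and 44.4% in the library titled C. In Ctx NPCs the largest gene was Mbp, with 54.5% of that sum, and Bcas1 made up 60.2% of the committed sum. A further set of shares left out 5 core genes listed as also known in other cell types (Pdgfra, Cspg4, Tspan2, Cnp and Cldn11). The genes left are not thereby specific to oligodendrocytes. On them the myelinating share was 48.1% in Ctx NPCs, 4.49% in Ctx astrocytes and 13.9% in VM astrocytes. It was 26.4% in the library titled C and 10.4% in the library titled NF. On these genes the progenitor share of the astrocyte cultures ran from 61.7% in the library titled C to 90.1% in Ctx astrocytes, and Olig1 was the largest gene of that stage, with 50.5% to 66.4% of the full progenitor sum in these 4 cultures. The order of the library titled C and VM astrocytes in myelinating share turned with this choice, and no order of their stages is read from the full cores. The median FPKM of the myelinating core is the value of its middle gene. It was 28.9 in Ctx NPCs and 0.373 in Ctx astrocytes (Fa2h in both), and 0.489 in VM astrocytes (Mal). In the library titled C it was 2.30 (Ugt8a) and in the library titled NF 0.262 (Mag). The middle gene had 20 reads in Ctx astrocytes, 29 in VM astrocytes and 13 in the library titled NF.

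**Figure D3:**
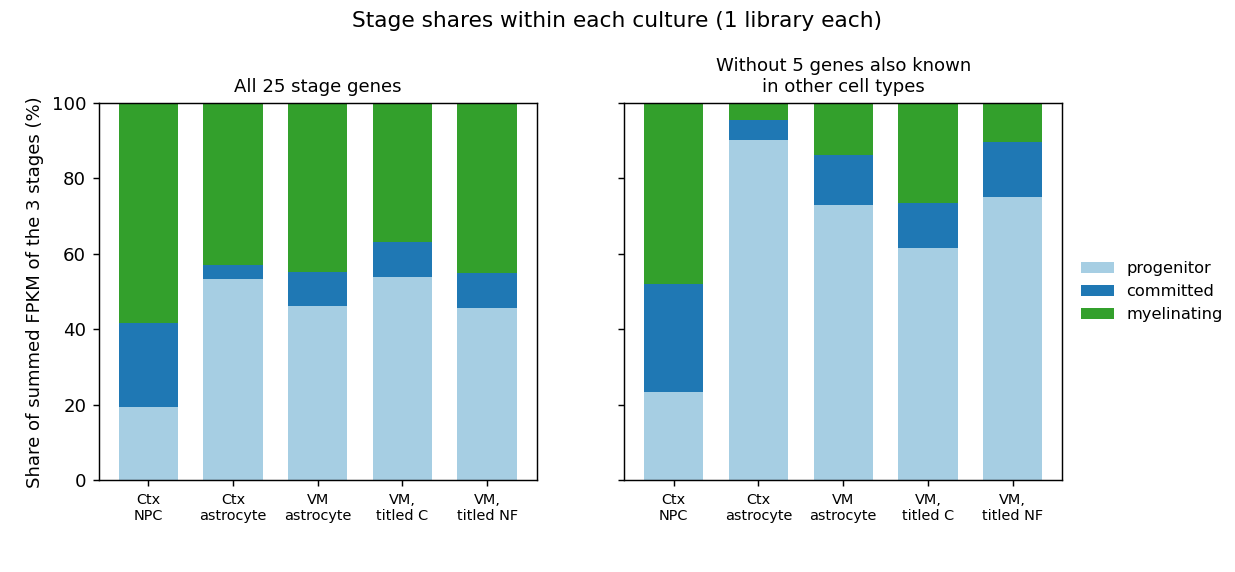
Stacked bars of the share (%) of summed FPKM held by the progenitor, committed and myelinating cores in each of the 5 libraries, with all 25 genes on the left and without 5 genes also known in other cell types on the right. The myelinating share of the Ctx astrocyte bar goes from 42.9% to 4.49% between the panels, while that of Ctx NPCs goes from 58.2% to 48.1%.

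Levels were also set against Mbp in the same library, which does not depend on library scaling. These ratios were chosen after the values were seen. Bcas1 stood at 42.5% of the Mbp FPKM in Ctx NPCs (interval 42.0 to 43.1) and at 42.1% in the library titled C (39.8 to 44.6), against 80.2% in VM astrocytes, 123% in Ctx astrocytes and 137% in the library titled NF. Mag stood at 8.53% (8.31 to 8.75) in Ctx NPCs and 9.01% (7.99 to 10.1) in the library titled C, and Sox10 at 16.3% and 17.2%. In Bcas1, Mag and Sox10 per Mbp, Ctx NPCs and the library titled C thus lay close together, although they differed 24.0-fold in Mbp itself. For Sox10 this was not particular to them, since VM astrocytes stood at 16.8% (13.7 to 20.5).

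Other genes per Mbp set these libraries apart. Of the myelin genes, Cldn11 was 16.4% of Mbp in Ctx NPCs against 12.8% in the library titled C. Ugt8a was 5.02% against 3.72%, Fa2h 1.95% against 0.487% and Gjc3 2.12% against 5.15%, each with intervals that do not overlap. Of the progenitor-stage genes, those other than Sox10 that were compared were lower in Ctx NPCs, with Olig1 at 24.8% of Mbp against 195% in the library titled C, Olig2 at 12.8% against 80.0%, and Pdgfra at 3.01% against 45.7%. Of the committed-stage genes, Gpr17 was 16.4% of Mbp (16.2 to 16.7) in Ctx NPCs and 1.94% (1.63 to 2.30) in the library titled C, and Enpp6 was 4.36% (4.22 to 4.5) and 1.70% (1.33 to 2.15). Mog was 0.108% (0.0813 to 0.141) in Ctx NPCs and 2.30% (1.73 to 3.0) in the library titled C. Opalin was 0.139% (0.0976 to 0.191) and 4.63% (3.51 to 6.0), and Mobp was 0.0829% (0.0583 to 0.114) and 0.906% (0.545 to 1.42). Per unit of Mbp, Gpr17 and Enpp6 were therefore higher in Ctx NPCs, and both the progenitor-stage genes Olig1, Olig2 and Pdgfra and the late genes Mog, Opalin and Mobp were higher in the library titled C, with intervals that do not overlap. In VM astrocytes, Ctx astrocytes and the library titled NF, Mog, Mobp and Opalin rested on 0 to 2 reads, and their intervals were wide. In VM astrocytes, Mog (0.0546 to 1.64) and Opalin (at most 1.60) lay below the library titled C. In Ctx astrocytes, Mog (0.142 to 4.30) and Mobp (0.162 to 4.91) lay above Ctx NPCs. The other intervals overlapped those of both Ctx NPCs and the library titled C. Aspa, by contrast, was 0.0153% of Mbp in Ctx NPCs and 1.02% in the library titled C, but 10.5% in Ctx astrocytes, 17.8% in VM astrocytes and 45.1% in the library titled NF.

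**Figure D4:**
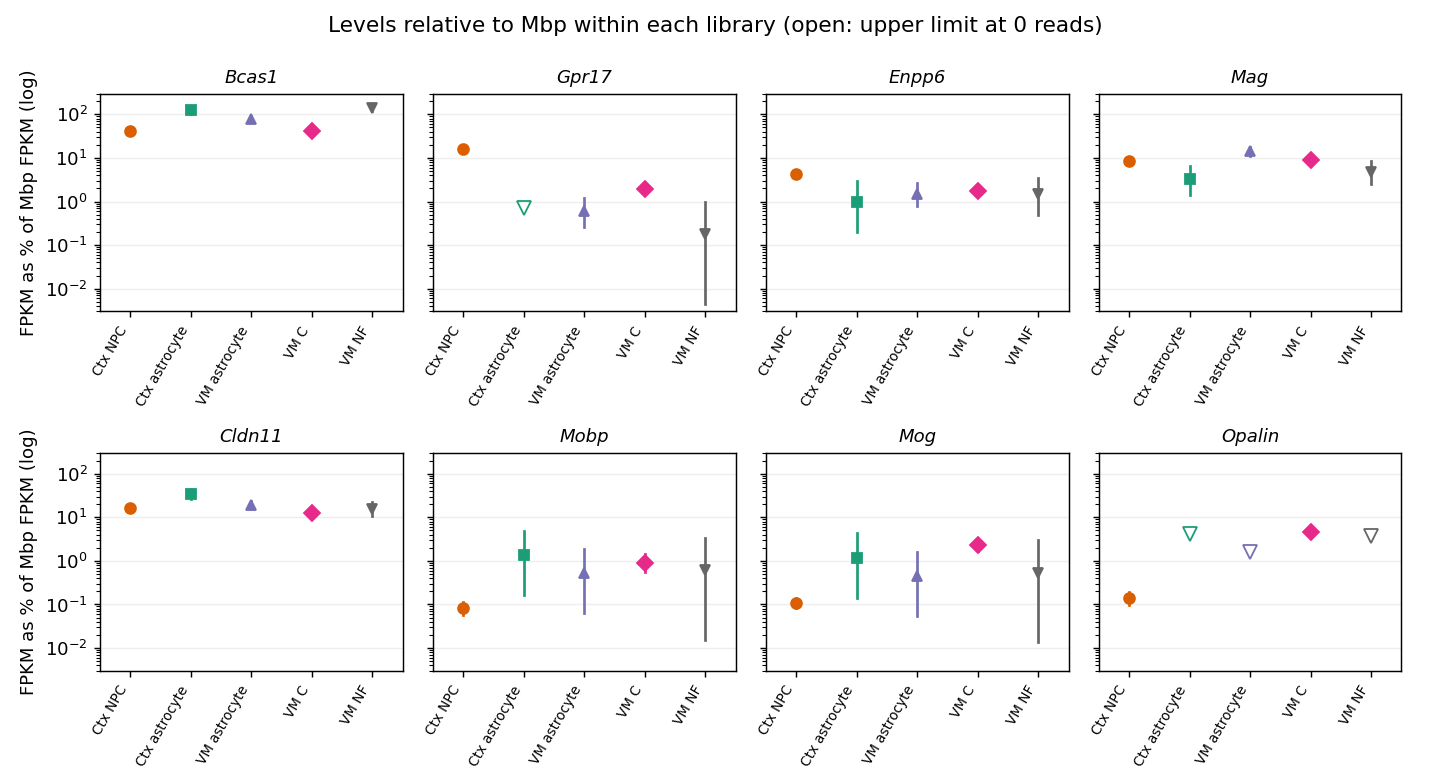
FPKM of 8 genes as a percent of the Mbp FPKM in the same library (log axis), with bars for 95% counting intervals and open triangles for the upper limit where there were 0 reads. Gpr17 is highest in Ctx NPCs at 16.4%, and Mog and Opalin are higher in the library titled C, at 2.30% and 4.63%, than in Ctx NPCs, at 0.108% and 0.139%.

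Other genes of the lineage were read from lists of 16 progenitor and committed genes and 19 myelin and mature genes. Of the first, 15 of 16 were called higher and 1 lower in Ctx NPCs against Ctx astrocytes. Of the second, 10 of the 14 that reached 1 FPKM were higher and 2 were lower. In Ctx astrocytes against VM astrocytes, 5 of 13 of the first list were higher and 1 was lower, and 3 of 10 of the second were higher and 1 was lower, so neither list leaned lower as the 35 genes did with 3 higher and 9 lower. In the library titled C against VM astrocytes, 1 of 13 of the first list was higher and 0 were lower, and 4 of 12 of the second were higher and 0 were lower, beside 18 higher and 3 lower of the 35 genes. In the library titled NF against VM astrocytes, 0 of 13 and 0 of 9 were called in either direction. Between the transduced libraries 3 of 13 and 5 of 12 were lower in the library titled NF, and 1 and 0 were higher.

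Genes known to hold back oligodendrocyte differentiation (Id2, Id4, Hes5, Lingo1, Bmp4 and Sox5) were read as a further list of 6. Of these 3 were called higher and 1 lower in Ctx NPCs relative to Ctx astrocytes, beside 20.1% and 17.9% of all rows. In the library titled C against VM astrocytes, 0 of the 5 that reached 1 FPKM were higher and 2 lower, beside 7.3% and 8.48% of all rows. Bmp4, a ligand that turns progenitors toward astrocytes, had 2433 reads in Ctx NPCs, 463 in Ctx astrocytes, 1090 in VM astrocytes, 80 in the library titled C and 1046 in the library titled NF. Of the VM cultures, the library titled C held the most myelin RNA and the least Bmp4, and Id4 and Lingo1 were also lowest there. Id2 was highest there, with 5537 reads against 3616 in VM astrocytes and 3196 in the library titled NF. Sox5 had 275 reads there against 225 and 249. A link of these genes to the myelin genes was not tested. Hes5, a target of Notch, had 1050 reads in Ctx NPCs and 0 to 20 elsewhere.

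Promoters of 5 myelin genes are shown next, with Mag and Cldn11, whose levels kept the order of Mbp among the VM libraries, ahead of the late genes Mog, Mobp and Opalin, whose levels per Mbp differed between Ctx NPCs and the library titled C. RefSeq gave promoters for 24 of the 35 genes, and the 250 bases before the start are printed 5′ to 3′ on the strand of the gene, from build GRCm38.p6. Capitals mark ACAATG or ACAAAG, the letters taken for Sox factors, and CTGGCAC or CTGGTAC, those taken for Myrf, on either strand, and the motifs do not overlap in these windows. The windows lie just before the gene starts, at chr7:30914923-30915172 (minus strand, the most upstream of 3 starts) for Mag, chr3:31149670-31149919 (plus) for Cldn11, chr17:37023399-37023648 (minus) for Mog, chr9:120149492-120149741 (plus) for Mobp and chr19:41077114-41077363 (minus) for Opalin.
Mag: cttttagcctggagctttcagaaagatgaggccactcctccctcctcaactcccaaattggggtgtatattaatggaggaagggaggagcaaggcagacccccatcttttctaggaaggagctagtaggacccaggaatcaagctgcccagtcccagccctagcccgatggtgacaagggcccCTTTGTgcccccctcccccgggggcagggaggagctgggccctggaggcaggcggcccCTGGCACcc
Cldn11: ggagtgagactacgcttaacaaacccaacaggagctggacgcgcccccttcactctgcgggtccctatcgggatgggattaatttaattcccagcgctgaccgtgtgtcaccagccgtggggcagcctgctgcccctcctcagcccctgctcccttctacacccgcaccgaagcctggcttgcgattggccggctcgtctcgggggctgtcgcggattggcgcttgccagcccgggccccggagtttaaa
Mog: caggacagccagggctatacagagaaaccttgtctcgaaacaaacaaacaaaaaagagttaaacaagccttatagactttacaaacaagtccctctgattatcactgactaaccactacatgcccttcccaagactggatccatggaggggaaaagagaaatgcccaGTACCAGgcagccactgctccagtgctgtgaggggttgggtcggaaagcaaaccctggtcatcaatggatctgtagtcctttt
Mobp: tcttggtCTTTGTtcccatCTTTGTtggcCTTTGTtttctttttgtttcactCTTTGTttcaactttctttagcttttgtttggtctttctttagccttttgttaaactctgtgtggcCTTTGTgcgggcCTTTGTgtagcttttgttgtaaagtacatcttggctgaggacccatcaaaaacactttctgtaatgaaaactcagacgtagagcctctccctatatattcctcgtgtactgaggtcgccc
Opalin: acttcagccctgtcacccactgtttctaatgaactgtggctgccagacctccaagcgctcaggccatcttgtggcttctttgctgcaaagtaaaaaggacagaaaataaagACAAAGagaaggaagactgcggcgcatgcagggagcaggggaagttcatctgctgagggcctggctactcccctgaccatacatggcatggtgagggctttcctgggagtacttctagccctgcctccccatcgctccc

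The Mobp window held 6 matches to the Sox letters, all on the reverse strand, between 243 and 120 bases before the start. Opalin held 1 Sox match at 139 bases, Mag 1 at 67 bases together with 1 Myrf match at 9 bases, and Mog 1 Myrf match at 83 bases. Cldn11 held neither motif. Over all promoters of the 24 genes, 13 of 31 (41.9%) held a Sox match, against 25.2% of the 32851 promoters in the table, and 5 of 31 (16.1%) held a Myrf match, against 5.93%. The E-box CAGCTG, the letters taken for Olig factors, was in 2 of 31 (6.45%), against 13%. Several starts of 1 gene share bases, so the promoters are not independent, and a match is a description of letters and not a binding site.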

How the data were processed

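RNA-seq of 5 mouse cultures was analysed, 1 library each. The authors trimmed reads below a quality of 20, used STAR to map them to GRCm38/mm10 and counted them on RefSeq exons (Release 105) with HTSeq. The processing notes also name mm9, bcl2fastq 1.8.4 and DESeq, and the files hold no coordinates, so symbols and positions come from RefSeq GRCm38.p6. Use of strand was not given in the sources used here. The deposited counts are raw reads per transcript row. The deposited FPKM are those counts per kilobase, scaled to the library total, and recomputing them gave the same values within a relative difference of 4.09e-05. A total row was left out. Of 20178 rows, 19993 were paired with a symbol and 185 were not. Totals were 20010818 to 22554835 reads, and no libraries were identical.

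Counts were scaled to library totals with 0.5 reads added. A row was called at 2-fold where either library passed 1 FPKM. Intervals are exact (Clopper-Pearson, 95%) for the ratio of 2 counts and cover counting error only, since copied reads are not independent molecules. A count of 0 was bounded at 3 reads. With 1 library per group there was no test. All 35 genes are named with their values, and other genes only where a result turns on them. A further marker gene is not reported here. The genes and lists were chosen with earlier results of these data known. Groups follow the titles where treatment entries contradict them. Alternatives were edgeR 4.0.16 TMM, DESeq2 1.42.0 size factors and upper-quartile scaling, 5 or no reads added, other filters on low values, leaving out genes known in other cell types, CPM, and stages without their largest gene. The calculations were tested on simulated counts. Python 3.11.15, scipy 1.17.1 and R 4.3.3 were used.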

Additional observations from a re-analysis of the deposited data

How the results depend on the processing

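With 1 library per culture, differences between cultures carry no biological error. Depth limits Mog, Mobp, Opalin, Ermn, Fa2h, Gpr17, Enpp6 and Gjc3 in Ctx astrocytes, VM astrocytes and the library titled NF. Ermn and Fa2h are limited also in the library titled C. Mag is limited in Ctx astrocytes (8 reads) and the library titled NF (13), and Ptgds in VM astrocytes (13) and the library titled NF (4). Other genes with few reads in a library share this limit. No paired analysis was possible because there is 1 library per group. Under edgeR's TMM, DESeq2's size factors and upper-quartile scaling the counts of called genes stayed within 26 to 27 (Ctx NPCs above Ctx astrocytes) and 2 to 3 (lower in the library titled C than in VM astrocytes) and were equal for the other comparisons, although TMM moved the median log2 ratio of all rows in Ctx NPCs against Ctx astrocytes from 0.19 to 0.01. Of 80 recomputed counts of called genes 67 stayed within 1.5 times.

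The other 13 counts depended on the filter or on which genes were kept. With FPKM above 1 required in both libraries, fewer genes were tested. Genes that passed this level in only 1 of the 2 libraries drop out. Against VM astrocytes, Gpr17, Mog and Opalin passed it only in the library titled C. Shares of all rows were not computed for this filter or for no filter, so these counts stand without one. Ctx NPCs were then above Ctx astrocytes for 16 of 20 tested genes, in place of 27 of 31. In Ctx astrocytes 4 of 19 were lower than in VM astrocytes, in place of 9 of 25. The library titled C was higher than VM astrocytes for 10 of 22, in place of 18 of 32. The library titled NF was lower than VM astrocytes for 2 of 21, in place of 4 of 24. It was lower than the library titled C for 9 of 20, in place of 19 of 31. With no filter, 1 gene was lower in Ctx NPCs and 7 were lower in the library titled NF than in VM astrocytes. A further setting left out 15 genes listed as also known in other cell types. The 20 genes kept are not thereby specific to oligodendrocytes. Of these 20, 17 were called higher in the cortical comparison of Ctx NPCs. In Ctx astrocytes 0 were higher and 4 lower than in VM astrocytes. Against VM astrocytes, 1 was lower in the library titled C and 2 were lower in the library titled NF. Between the transduced libraries, 1 was higher in the library titled NF. These counts are smaller by construction, since fewer genes were tested.

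All 30 recomputed stage shares moved by more than counting error. With CPM in place of FPKM, the committed and myelinating shares were 30.5% and 51.1% in Ctx NPCs, 5.08% and 36.5% in Ctx astrocytes, 10.7% and 37.1% in VM astrocytes, 10.4% and 30.5% in the library titled C and 10.9% and 34.6% in the library titled NF. Without the gene with the largest FPKM in each stage they were 19.0% and 56.3%, 7.88% and 12.4%, 15.9% and 24.9%, 6.14% and 41.5%, and 16.9% and 15.0% in the same order. Without the 5 core genes listed as known in other cell types they were 28.5% and 48.1%, 5.45% and 4.49%, 13.3% and 13.9%, 11.9% and 26.4%, and 14.6% and 10.4%. Ctx NPCs held the largest committed and myelinating shares under the main setting and all 3 alternatives.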
